A study of Mus musculus with 22 samples.

Results

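The type I interferon response genes are 37 mouse genes whose RNA is induced when a cell senses interferon alpha or beta, and they were followed here in donor T cells taken from transplant recipients. A gene counted as a member when its symbol was on the list and it reached 1 CPM (its read count scaled to the total count of the library) in at least 5 of 22 libraries. All 37 of the 37 listed genes met this rule, out of 24091 gene names in the count table. Ifi44 lay nearest to the limit, with 1 CPM reached in 6 libraries, and no listed gene fell below it. Lethally irradiated BALB/c wild-type mice were transplanted with bone marrow and spleen cells of wild-type C57BL/6 donors. They were dosed every other day between day 0 and day 6 with an anti-IL-2 monoclonal antibody or with control IgG. Sorting on day 7 gave CD4 and CD8 T cells of donor origin from the spleen and the colon, which the labels call gut. The 8 groups were CD4 or CD8 cells from spleen or gut under IgG or anti-IL-2, and all cells and all recipients shared the wild-type genotype, the irradiation and the transplant. There were 3 libraries in every spleen group and in both anti-IL-2 groups of gut, 1 from each of the batches that the labels name 181201, 181212 and 190306, and each gut IgG group had 2, because batch 181201 held no gut IgG library. Animal age was not given in the sources used here, and neither was whether a library came from 1 recipient or from pooled recipients.

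Type I interferons bind a receptor made of the chains Ifnar1 and Ifnar2, whose kinases Jak1 and Tyk2 phosphorylate STAT proteins. Stat2 and Irf9 are parts of the complex ISGF3, which binds the interferon-stimulated response element in the promoters of its target genes. The targets include sensors of foreign nucleic acid, enzymes that block viral RNA and protein synthesis, the ubiquitin-like modifier Isg15 and its machinery, and Usp18, which dampens the receptor. In T cells the same response is known to shape expansion, survival and differentiation.

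The promoters of 6 members show what the response element looks like in the genes followed below. Each window runs from 250 bases before to 50 bases after the annotated start (RefSeq, build GRCm38.p6) and is printed 5′ to 3′ on the strand of the gene, with matches to the response element core in capitals. The core is GAAA, any 2 bases and GAAA again, searched on both strands, and it reads as TTTC, any 2 bases and TTTC where the match lies on the other strand. Isg15 (chr4:156200769-156201068, minus strand) holds 3 overlapping matches that begin at -78, -72 and -66 from the first transcribed base. Oas1a (chr5:120907476-120907775, minus strand) holds 2 overlapping matches at -20 and -14. Ifit1 (chr19:34640639-34640938, plus strand) holds 2 at -104 and -85, and its neighbour Ifit3 (chr19:34583279-34583578, plus strand) holds 2 at -156 and -122. Rsad2 (chr12:26456403-26456702, minus strand) holds 1 at -120. Samd9l (chr6:3399522-3399821, minus strand) holds none and is shown because its RNA was higher under anti-IL-2 in 1 of the 6 differences within batches 181201 and 181212.
Isg15: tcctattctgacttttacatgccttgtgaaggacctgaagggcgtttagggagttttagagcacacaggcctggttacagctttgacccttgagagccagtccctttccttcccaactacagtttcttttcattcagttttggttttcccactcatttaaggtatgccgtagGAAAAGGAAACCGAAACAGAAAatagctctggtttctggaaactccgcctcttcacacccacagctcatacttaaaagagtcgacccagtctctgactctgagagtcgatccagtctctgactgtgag
Oas1a: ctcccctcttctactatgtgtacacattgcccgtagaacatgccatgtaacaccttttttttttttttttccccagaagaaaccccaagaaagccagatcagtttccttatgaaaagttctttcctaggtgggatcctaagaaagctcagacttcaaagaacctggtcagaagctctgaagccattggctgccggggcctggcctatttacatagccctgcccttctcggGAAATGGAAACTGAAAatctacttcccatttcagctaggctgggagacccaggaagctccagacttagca
Ifit1: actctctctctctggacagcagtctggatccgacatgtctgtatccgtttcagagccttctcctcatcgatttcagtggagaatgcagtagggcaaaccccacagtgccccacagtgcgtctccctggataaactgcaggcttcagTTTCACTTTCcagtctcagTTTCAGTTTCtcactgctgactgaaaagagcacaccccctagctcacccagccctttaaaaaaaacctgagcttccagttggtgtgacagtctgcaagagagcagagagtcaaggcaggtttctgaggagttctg
Ifit3: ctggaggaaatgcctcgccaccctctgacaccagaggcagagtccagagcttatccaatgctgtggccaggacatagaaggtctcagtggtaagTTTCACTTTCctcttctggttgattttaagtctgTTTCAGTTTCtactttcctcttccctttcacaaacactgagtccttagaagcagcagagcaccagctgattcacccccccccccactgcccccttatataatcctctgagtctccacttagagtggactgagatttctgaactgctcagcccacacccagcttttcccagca
Rsad2: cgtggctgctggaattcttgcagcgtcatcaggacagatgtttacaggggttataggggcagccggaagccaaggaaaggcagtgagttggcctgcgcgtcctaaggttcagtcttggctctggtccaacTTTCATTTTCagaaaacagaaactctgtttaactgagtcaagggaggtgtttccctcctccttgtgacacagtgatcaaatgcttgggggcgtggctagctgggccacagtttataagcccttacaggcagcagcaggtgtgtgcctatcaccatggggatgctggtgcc
Samd9l: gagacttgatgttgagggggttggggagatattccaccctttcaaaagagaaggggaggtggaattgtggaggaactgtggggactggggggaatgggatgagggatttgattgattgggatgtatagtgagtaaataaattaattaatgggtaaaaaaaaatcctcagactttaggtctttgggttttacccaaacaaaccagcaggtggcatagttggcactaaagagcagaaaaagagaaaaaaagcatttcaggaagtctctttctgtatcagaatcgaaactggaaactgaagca

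Of the 37 members, 28 had an entry in the RefSeq promoter table. This core was found in 12 of these 28 genes (42.9%), against 1079 of all 27025 genes in the table (3.99%). The 12 were Oas1a, Oas3, Isg15, Ifit1, Ifit3, Stat2, Rsad2, Bst2, Ddx58, Ifih1, Eif2ak2 and Trim30a. The palindrome TTCNNNGAA, which STAT dimers bind and which was searched in the same windows, was found in 6 of 28 (21.4%), against 9.55% of all genes. Both are matches of letters in a window of 300 bases and are not measured binding sites.

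Libraries held 14628806 to 24518362 counts, and the 37 members took between 0.277% and 0.512% of them. The sorts were checked by the identity genes. The summed level of the CD4 markers Cd4 and Zbtb7b ran from 2150 to 2743 CPM in the CD4 libraries and from 72.8 to 121 in the CD8 libraries, and the summed CD8 markers ran from 1766 to 3279 CPM in the CD8 libraries and from 8.82 to 15.7 in the CD4 libraries. For the 5 CD8 IgG libraries a second label names the other tissue, and the tissue of the source label was used here. The libraries of batch 190306 went against the labelled treatment of the other batches: Il2ra, a target of IL-2 signalling, stood between 54.6 and 96.4 CPM in the anti-IL-2 libraries and between 171 and 261 in the IgG libraries of batches 181201 and 181212, but between 156 and 327 in the libraries labelled anti-IL-2 and between 44.5 and 111 in those labelled IgG of batch 190306. The labels were kept, and treatment differences are given within each batch.

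The members differed widely in abundance. Per kilobase of exon, Ifi27l2a, a small mitochondrial protein, was the most abundant member in all 4 populations (mean 527 CPM per kb in CD4 spleen, 141 in CD8 spleen, 268 in CD4 gut and 133 in CD8 gut cells). Sp100, a component of nuclear bodies, came next in each population, with 72.3, 93.4, 64.8 and 87.1 CPM per kb in the same order. Ifi44 was the least abundant member, at 0.491, 0.0913, 0.0601 and 0.0289 CPM per kb. Over all libraries the most abundant transcription factor was Irf9 (22.7 CPM per kb), the most abundant sensor was Zbp1, a receptor for Z-form nucleic acid (44.1), and the most abundant antiviral effector was Trim30a (45.7). Dtx3l, an E3 ligase and partner of Parp9, led the ADP-ribosylation group (45.4), Trim25, the ligase that activates RIG-I, led the ISG15 group (25.5), Oas3 led the OAS family of double-stranded RNA sensors (16.3), and Ifit2 led the IFIT family of RNA-binding inhibitors of translation (11.8).

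**Figure D1:**
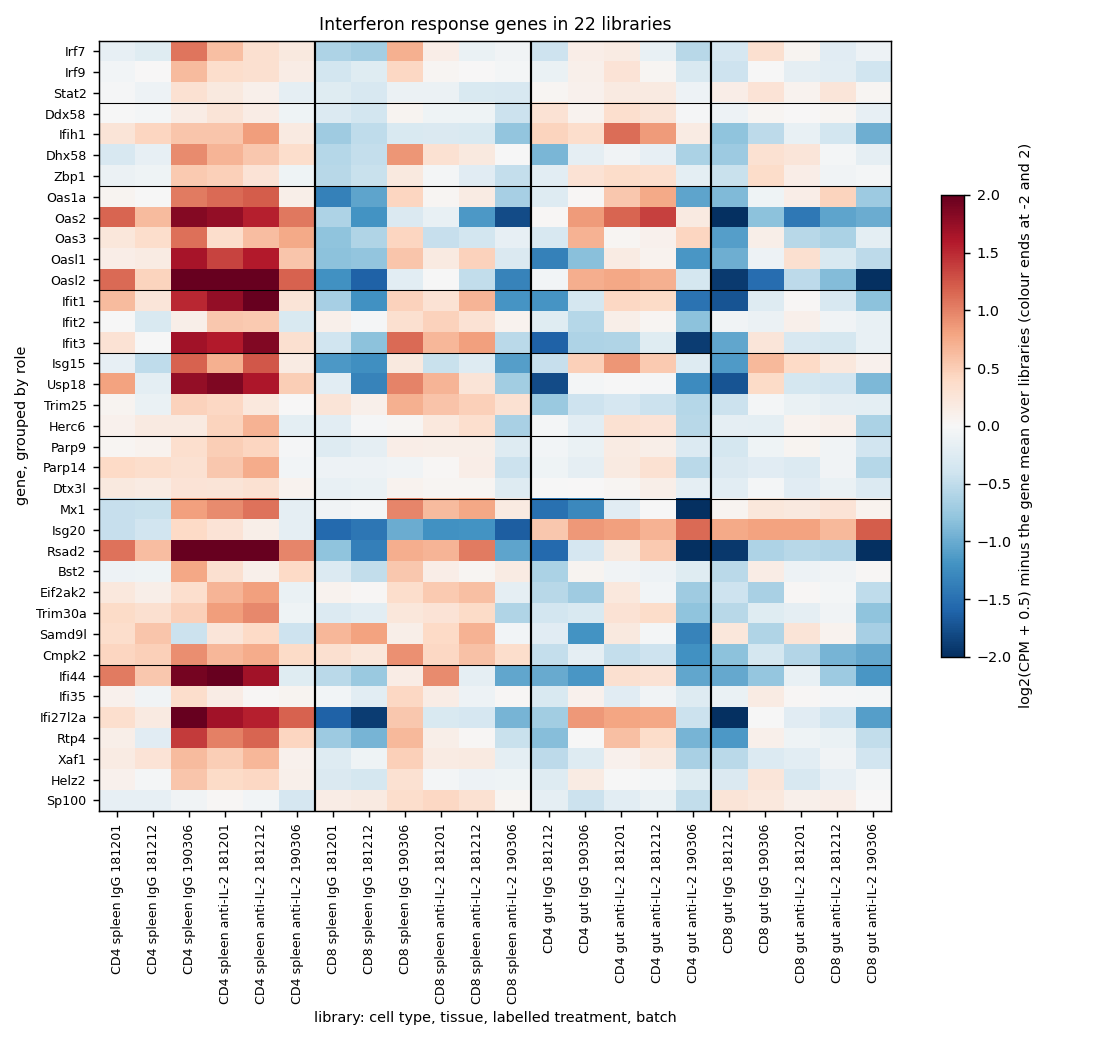
Each row is 1 of the 37 genes and each column 1 of the 22 libraries, ordered by population, labelled treatment and batch, and the colour is log2(CPM + 0.5) minus the mean of the gene over all libraries, cut at -2 and 2. Horizontal lines part the roles and vertical lines the 4 populations. In each population the anti-IL-2 libraries of batches 181201 and 181212 and the IgG library of batch 190306 are the redder columns for most genes, while Samd9l does not share that pattern.

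In batches 181201 and 181212 the interferon response genes were higher under anti-IL-2 in each of the 4 populations, and in batch 190306 they were lower in the libraries labelled anti-IL-2. In CD4 spleen cells 34 and 36 of 37 members were higher under anti-IL-2 in batches 181201 and 181212, and 36 of 37 were lower in batch 190306. CD8 spleen cells had 36 and 35 members higher, and 37 lower in batch 190306. In gut, where batch 181212 alone of these 2 batches holds IgG, 36 members were higher in CD4 and 32 in CD8 cells, and 35 were lower in both populations in batch 190306. The median member difference in log2 CPM was 0.42, 0.50 and -0.53 in the 3 batches of CD4 spleen cells and 0.40, 0.35 and -0.65 in those of CD8 spleen cells. It was 0.47 in batch 181212 and -0.41 in batch 190306 for CD4 gut cells, and 0.34 and -0.41 for CD8 gut cells. Of the 37 members, 26 (70.3%) were higher in all 6 differences of batches 181201 and 181212 and lower in all 4 of batch 190306, against 924 of the 12841 genes tested (7.2%). Populations of the same batch and treatment may share recipients, so these differences are not independent repeats.

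**Figure D2:**
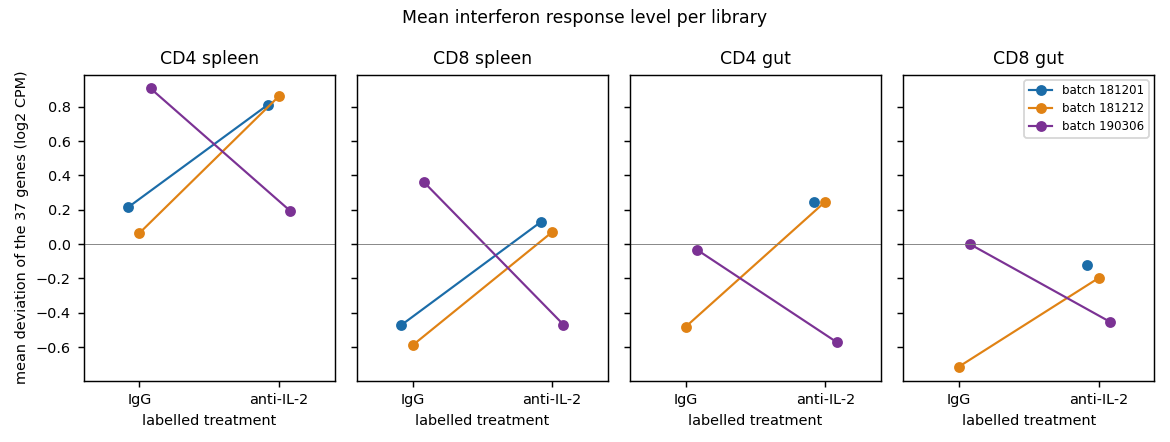
Points give the mean over the 37 genes of log2 CPM minus the mean of each gene over all libraries, 1 point per library, with lines joining IgG and anti-IL-2 of the same batch and small sideways shifts to keep points apart. The lines of batches 181201 and 181212 rise from IgG to anti-IL-2 and those of batch 190306 fall, and CD4 spleen holds the highest library, at 0.91.

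The mean member level put the CD4 spleen IgG library of batch 190306 first of the 22 libraries (0.91 above the mean of all libraries in log2 CPM), followed by the CD4 spleen anti-IL-2 libraries of batches 181212 (0.86) and 181201 (0.81). The lowest library was CD8 gut IgG of batch 181212 (-0.71). When edgeR was fitted to all 3 batches together, 0 of 37 members passed an adjusted p of 0.05 for treatment in any population, and 0% of the 12841 genes did. At an unadjusted p under 0.05 there were 0 members in CD4 spleen, CD8 spleen and CD4 gut cells and 1 in CD8 gut cells, which was lower.

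Tests of treatment therefore used batches 181201 and 181212, a choice made after the data were seen. They had 14 libraries and 5 residual degrees of freedom, with 1 IgG library in each gut contrast. This fit has no term for the combinations of batch and treatment that the populations share. The 4 populations are therefore not independent repeats of the treatment. In CD4 spleen cells 28 of 37 members rose and 0 fell by edgeR's quasi-likelihood test (adjusted p under 0.05), where 9.8% of all 13073 genes tested rose and 10.3% fell (20.1% in either direction). CD8 spleen cells had 27 members that rose and 0 that fell, beside 6.06% and 6.08% of all genes. In CD4 gut cells 20 rose and 0 fell, beside 6.04% and 5.68%, and in CD8 gut cells 12 rose and 0 fell, beside 5.51% and 5.22%. At an unadjusted p under 0.05, 0 members were lower in the first 3 populations and 1 was lower in CD8 gut cells. The median log2 fold change of the members was 0.52, 0.34, 0.49 and 0.36 in the same order, where that of all genes lay between -0.00481 and 0.0116. Leaving out 1 library at a time gave 24 or 25 members in CD4 spleen and 8 or 10 in CD8 gut cells. It gave 14 and 16 in CD8 spleen cells without the IgG library of batch 181201 or 181212 and 13 and 14 without the anti-IL-2 library of either, and in CD4 gut cells 15 and 11 without the anti-IL-2 library of batch 181201 or 181212. Members called without each library in turn numbered 22, 9, 9 and 7 in CD4 spleen, CD8 spleen, CD4 gut and CD8 gut cells, and Dhx58, Ifi27l2a, Oas1a, Rtp4 and Trim30a were among them in all 4. In gut only the anti-IL-2 libraries could be left out, because each contrast needs its 1 IgG library. The gut calls were therefore not checked against that library. In these bulk libraries, more responding cells and more RNA per responding cell cannot be told apart.

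The 3 transcription factors had a median log2 fold change of 0.33 in CD4 spleen cells, where the OAS family had 1.14 and the IFIT family 1.59. Irf9, the DNA-binding partner in ISGF3, stood at 116 and 121 CPM in the CD4 spleen IgG libraries of batches 181201 and 181212 and at 153 and 151 in their anti-IL-2 libraries. In batch 190306 it stood at 186 under IgG and 133 under anti-IL-2. Anti-IL-2 and IgG libraries did not overlap within the first 2 batches, and Irf9 rose by 0.33 ± 0.07 (SE) on the log2 scale in CD4 spleen and by 0.29 ± 0.07 in CD8 spleen cells. Irf7, the factor that amplifies interferon alpha production, was at 61.6 and 58.0 CPM under IgG and 105 and 86.3 under anti-IL-2 in CD4 spleen cells of these batches, with 145 and 78.9 in batch 190306. It rose in CD4 spleen (0.64 ± 0.07) and CD8 spleen cells (0.62 ± 0.08), and its differences in CD4 gut (0.29 ± 0.09) and CD8 gut cells (0.09 ± 0.09) did not pass. Stat2 passed in no population, with values between -0.05 ± 0.10 and 0.18 ± 0.08. Irf7 shares 45 exon bases with Phrf1 on the opposite strand and Irf9 shares 123 with Rnf31 on the same strand, and the strand setting of the counting was not given in the sources used here.

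Among the sensors, Dhx58 (LGP2), a helicase of the RIG-I family, rose in all 4 populations, by 0.84 ± 0.10 in CD4 spleen, 0.76 ± 0.10 in CD8 spleen, 0.75 ± 0.14 in CD4 gut and 0.75 ± 0.14 in CD8 gut cells. Zbp1 rose in all 4 as well, by 0.34 ± 0.08 to 0.49 ± 0.10. Its level in CD4 spleen cells was 140 and 143 CPM under IgG and 211 and 184 under anti-IL-2 in batches 181201 and 181212, and 219 under IgG and 142 under anti-IL-2 in batch 190306. Ddx58, which encodes RIG-I, rose slightly in spleen (0.19 ± 0.06 in CD4 and 0.21 ± 0.06 in CD8 cells) and had the lowest value of all members in CD4 gut cells (-0.06 ± 0.07), where it was at 198 CPM in the IgG library of batch 181212 and at 203 and 193 in the anti-IL-2 libraries of batches 181201 and 181212. Ifih1, which encodes the related sensor MDA5, did not pass in any population, with values between 0.27 ± 0.13 and 0.52 ± 0.16.

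Members of the OAS and IFIT families showed some of the larger differences. Oas1a, which makes the messenger that activates RNase L, was at 14.7 and 14.2 CPM under IgG and at 31.8 and 33.5 under anti-IL-2 in CD4 spleen cells of batches 181201 and 181212. In batch 190306 the same cells had 29.6 under IgG and 15.5 under anti-IL-2. Oas1a rose in all 4 populations, by 1.14 ± 0.12, 1.34 ± 0.13, 0.99 ± 0.15 and 1.24 ± 0.16 in CD4 spleen, CD8 spleen, CD4 gut and CD8 gut cells. Oas3, the most abundant member of the family, changed least in it: 126 and 137 CPM under IgG against 138 and 164 under anti-IL-2 in CD4 spleen cells, where its difference did not pass (0.17 ± 0.07), and 0.27 ± 0.08, 0.41 ± 0.10 and 0.51 ± 0.10 in the other populations, where it did. Oas2 passed in none, with 0.33 ± 0.34 to 1.16 ± 0.35. Oasl2 rose in CD4 spleen (1.57 ± 0.18), CD8 spleen (1.34 ± 0.25) and CD8 gut cells (1.34 ± 0.37), and Oasl1, a brake on Irf7 translation, in the first 3 populations, by 1.46 ± 0.27, 1.45 ± 0.33 and 2.16 ± 0.49.

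Ifit1 stood at 18.0 and 13.7 CPM under IgG and at 40.2 and 68.6 under anti-IL-2 in CD4 spleen cells of batches 181201 and 181212, and at 33.4 under IgG and 13.9 under anti-IL-2 in batch 190306. It rose in CD4 spleen (1.74 ± 0.31) and CD8 spleen cells (1.45 ± 0.37), and similar values in CD4 gut (1.67 ± 0.49) and CD8 gut cells (1.70 ± 0.54) did not pass with 1 IgG library. Ifit3 rose in CD4 spleen (1.59 ± 0.18), CD8 spleen (1.37 ± 0.19) and CD4 gut cells (1.33 ± 0.30). Ifit2, the most abundant of the 3, was at 44.9 and 36.8 CPM under IgG and at 66.0 and 65.6 under anti-IL-2 in CD4 spleen cells, with 49.2 and 36.6 in batch 190306. It rose in CD4 spleen (0.66 ± 0.08) and CD8 spleen cells (0.31 ± 0.08) and was near 0 in CD8 gut cells (-0.03 ± 0.10). Ifit1, Ifit3 and Oas1a have related genes in the count table, such as Ifit1bl1, Ifit3b and Oas1g. How alike the copies are was not measured, so counts are uncertain where reads could be split between copies.

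In the ISG15 group, all 4 members rose in CD4 spleen, CD8 spleen and CD4 gut cells, and 1 of 4, Isg15 itself, rose in CD8 gut cells. Isg15 was at 12.5 and 9.74 CPM in the CD4 spleen IgG libraries of batches 181201 and 181212 and at 23.5 and 34.0 in their anti-IL-2 libraries, with 32.5 under IgG and 15.9 under anti-IL-2 in batch 190306. In CD8 gut cells it was at 6.16 CPM in the IgG library of batch 181212 and at 18.7 and 16.3 in the anti-IL-2 libraries of batches 181201 and 181212, while batch 190306 gave 22.3 under IgG and 14.9 under anti-IL-2. Its log2 fold change was 1.34 ± 0.20, 0.85 ± 0.23, 1.16 ± 0.26 and 1.43 ± 0.28 in CD4 spleen, CD8 spleen, CD4 gut and CD8 gut cells. Usp18, which removes Isg15 from proteins and blocks the receptor, rose in the first 3 (1.42 ± 0.26, 1.26 ± 0.30 and 1.87 ± 0.47), and its CD8 gut value of 1.37 ± 0.47 did not pass. Trim25 had lower values: 147 and 128 CPM under IgG against 189 and 164 under anti-IL-2 in CD4 spleen cells, a rise of 0.33 ± 0.06, with 195 and 143 in batch 190306.

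The ADP-ribosylation group, made of Parp9, its partner ligase Dtx3l and Parp14, had the lowest group median in CD4 spleen cells (0.22). Dtx3l was at 297 and 289 CPM under IgG and 308 and 320 under anti-IL-2 in CD4 spleen cells of batches 181201 and 181212, and at 312 and 270 in batch 190306, and it passed in no population. Parp9 rose in CD4 spleen (0.39 ± 0.06), CD8 spleen (0.31 ± 0.06) and CD8 gut cells (0.27 ± 0.08). Parp9 and Dtx3l overlap by 458 exon bases on opposite strands, which is 9.4% of the exons of Parp9.

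Of the 8 other antiviral effectors, 6 rose in CD4 spleen, 5 in CD8 spleen, 5 in CD4 gut and 2 in CD8 gut cells. Rsad2, or viperin, which makes a chain-terminating nucleotide, was at 12.3 and 8.85 CPM in the CD4 spleen IgG libraries of batches 181201 and 181212 and at 27.9 and 37.3 in their anti-IL-2 libraries. In CD4 gut cells it was at 1.56 CPM in the IgG library of batch 181212 and at 6.43 and 8.28 in the anti-IL-2 libraries, and batch 190306 gave 4.33 under IgG and 0.834 under anti-IL-2. Rsad2 had the largest rise of the group in each population, at 1.58 ± 0.23, 2.08 ± 0.28, 2.24 ± 0.41 and 1.69 ± 0.47 in CD4 spleen, CD8 spleen, CD4 gut and CD8 gut cells. Its neighbour Cmpk2, a nucleotide kinase 12751 bases from it on chromosome 12, passed in none, with values from -0.00354 ± 0.16 to 0.22 ± 0.11. Trim30a, an inhibitor of signalling and of retroviruses, was at 231 and 221 CPM under IgG and 316 and 345 under anti-IL-2 in CD4 spleen cells, with 247 and 168 in batch 190306. It rose in all 4 populations, by 0.41 ± 0.08 to 0.70 ± 0.08.

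Mx1 differed between the cell types in its RNA response, and its protein was not measured. In CD4 spleen cells it was at 18.5 and 18.6 CPM under IgG and at 49.8 and 55.4 under anti-IL-2 in batches 181201 and 181212, and in batch 190306 at 45.7 under IgG and 22.7 under anti-IL-2. CD8 spleen cells had 24.4 and 25.1 CPM under IgG and 40.0 and 44.2 under anti-IL-2, with 50.9 and 29.2 in batch 190306. CD4 gut cells had 8.81 CPM under IgG in batch 181212 and 21.9 and 25.6 under anti-IL-2, with 10.2 and 6.01 in batch 190306. In CD8 gut cells all 5 libraries lay between 26.8 and 31.1 CPM. Mx1 rose by 1.47 ± 0.09 in CD4 spleen, 0.74 ± 0.09 in CD8 spleen and 1.45 ± 0.13 in CD4 gut cells, and its CD8 gut value of 0.17 ± 0.11 did not pass. The difference between the cell types passed in spleen (CD4 minus CD8 0.73 ± 0.12, edgeR adjusted p = 0.0153) and in gut (1.28 ± 0.17, edgeR adjusted p = 0.00939). Mx1 was the 1 member of 37 called in each of these 2 comparisons, where 0.918% and 0.0841% of all 13073 genes were called in either direction. The spleen call was lost without the CD4 IgG library of batch 181212 (adjusted p = 0.0709), without the CD4 anti-IL-2 library of batch 181212 (0.0578), and without the CD8 libraries IgG of batch 181201 (0.0684), anti-IL-2 of batch 181201 (0.0835) or anti-IL-2 of batch 181212 (0.0676), all by edgeR. The gut call was lost without the CD4 anti-IL-2 library of batch 181212 (edgeR adjusted p = 0.0518). For gut against spleen, Irf7 was the 1 member whose response differed in CD8 cells (-0.53 ± 0.12, edgeR adjusted p = 0.0348, with 2.39% of all genes called), and this call was lost in 5 of 6 fits that left out a library, with edgeR adjusted p from 0.0598 to 0.178, and stayed without the CD8 spleen IgG library of batch 181212 (0.0438). In CD4 cells 0 members were called by edgeR, 8 members had an unadjusted p under 0.05, and 5.39% of all genes were called (3.45% higher and 1.94% lower). Without the CD4 spleen IgG library of batch 181201, 2 members were called there.

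Among the 7 other induced genes, Ifi44 had the largest differences and the fewest reads. It was at 1.79 and 1.13 CPM under IgG and at 7.92 and 3.08 under anti-IL-2 in CD4 spleen cells of batches 181201 and 181212, and at 3.71 under IgG and 0.444 under anti-IL-2 in batch 190306. It rose by 1.81 ± 0.35 in CD4 spleen and by 2.17 ± 0.54 in CD8 spleen cells, where IgG libraries of these batches held 5 and 3 reads. In CD4 gut cells of batch 181212 it had 14 reads under anti-IL-2 and 1 under IgG, a ratio of 16.0 with a 95% interval from counting error of 2.43 to 675. Ifi27l2a, the most abundant member per kilobase, was at 118 and 106 CPM under IgG and 301 and 275 under anti-IL-2 in CD4 spleen cells, and at 452 and 212 in batch 190306. In CD8 gut cells it was at 19.3 CPM in the IgG library of batch 181212, at 79.8 and 72.0 in the anti-IL-2 libraries of batches 181201 and 181212, and at 93.2 and 43.4 in batch 190306. It rose in all 4 populations, by 1.33 ± 0.07, 1.42 ± 0.08, 1.39 ± 0.09 and 1.85 ± 0.10, and the last was the largest called value in CD8 gut cells. Rtp4, a chaperone of receptors, rose in all 4 too (0.90 ± 0.13 to 1.28 ± 0.16). Ifi35 passed in none, with values between 0.03 ± 0.12 and 0.13 ± 0.09.

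Samd9l and, in CD8 gut cells, Sp100 had the lowest values. Samd9l, an antiviral protein that restrains proliferation, was at 176 and 203 CPM under IgG and at 163 and 183 under anti-IL-2 in CD4 spleen cells of batches 181201 and 181212, and at 103 under both labels in batch 190306. In CD8 spleen cells it was at 219 and 242 under IgG and at 183 and 224 under anti-IL-2, with 149 and 133 in batch 190306. It had the lowest log2 fold change of the members in CD4 spleen (-0.17 ± 0.12) and CD8 spleen cells (-0.21 ± 0.12), neither of which passed, and was higher under anti-IL-2 in 1 of the 6 differences within batches 181201 and 181212. Its levels split by batch instead, and in each population every library of batch 190306 was below every library of the others. Sp100 had the lowest value in CD8 gut cells (-0.20 ± 0.07, not passed), with 713 CPM in the IgG library of batch 181212, 636 and 654 in the anti-IL-2 libraries, and 691 and 599 in batch 190306. In the other populations its values were 0.12 ± 0.06 in CD4 spleen, 0.17 ± 0.06 in CD8 spleen and -0.03 ± 0.07 in CD4 gut cells, none of which passed. Within batches Sp100 was higher under anti-IL-2 in 5 of 6 differences of batches 181201 and 181212 and lower in 4 of 4 of batch 190306, as most members were.

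**Figure D3:**
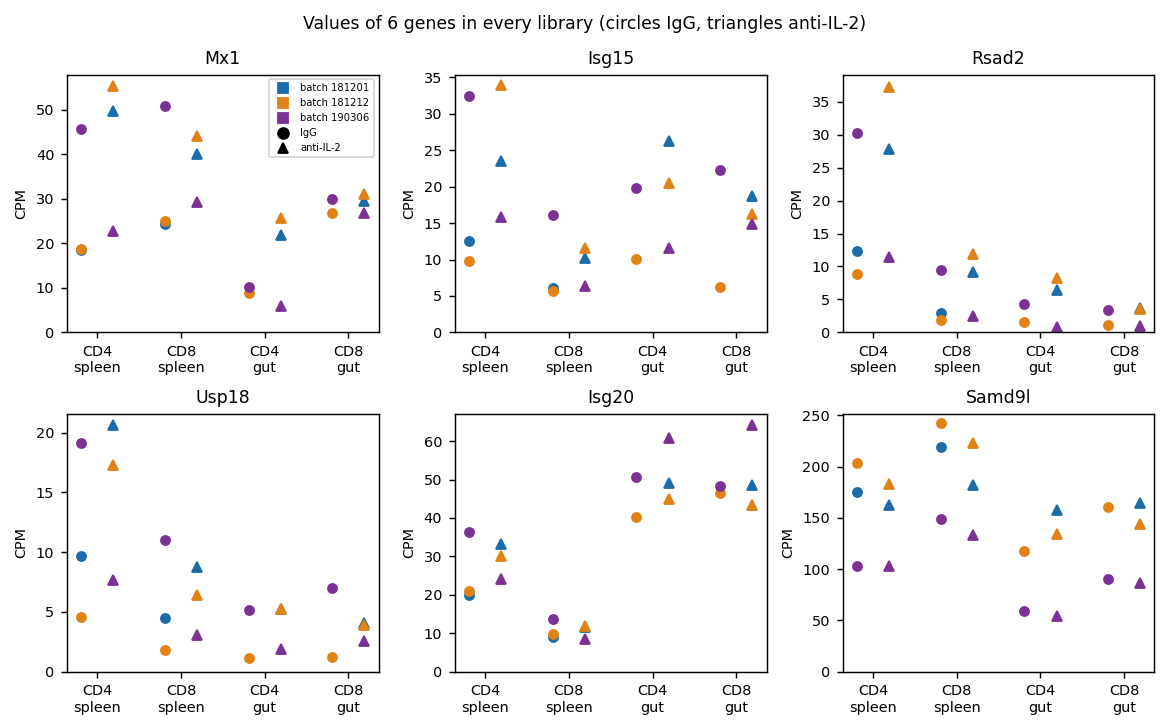
Each panel gives CPM per library for 1 gene, with circles for IgG, triangles for anti-IL-2 and colours for batches, over the 4 populations. Mx1, Isg15, Rsad2 and Usp18 are higher in the anti-IL-2 libraries of batches 181201 and 181212 and in the IgG library of batch 190306 in CD4 spleen, Isg20 is higher in gut than in spleen, and Samd9l is lowest in batch 190306 within each population.

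The opposite direction in batch 190306 was tested gene by gene, as the treatment difference of that batch minus that of the others. In CD4 spleen cells this value was lower for 34 of 37 members and higher for 0 by edgeR, where 11.5% of all 12841 genes were lower. CD8 spleen cells also had 34 lower and 0 higher, beside 8.2% of all genes. CD4 gut cells had 26 lower and 0 higher (6.56% of all genes lower and 8.4% higher), and CD8 gut cells had 18 lower (6.55%) and 1 higher (6.42%). At an unadjusted p under 0.05, 0 members were higher in the first 3 populations. The member that was higher in CD8 gut cells was Isg20, an RNA exonuclease (0.51 ± 0.15). It was at 46.6 CPM under IgG and 43.3 under anti-IL-2 in batch 181212 but 48.3 and 64.3 in batch 190306. Its call did not hold in every fit that left out an anti-IL-2 library of batches 181201 and 181212. The largest called values were those of Ifi44 in CD4 spleen (-4.82 ± 0.68) and CD8 spleen cells (-5.98 ± 1.14), of Rsad2 in CD4 gut cells (-4.59 ± 0.65) and of Rsad2 in CD8 gut cells (-3.54 ± 0.69). Each group of batch 190306 held 1 library in this test, so its p values take the spread from the other batches.

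**Figure D4:**
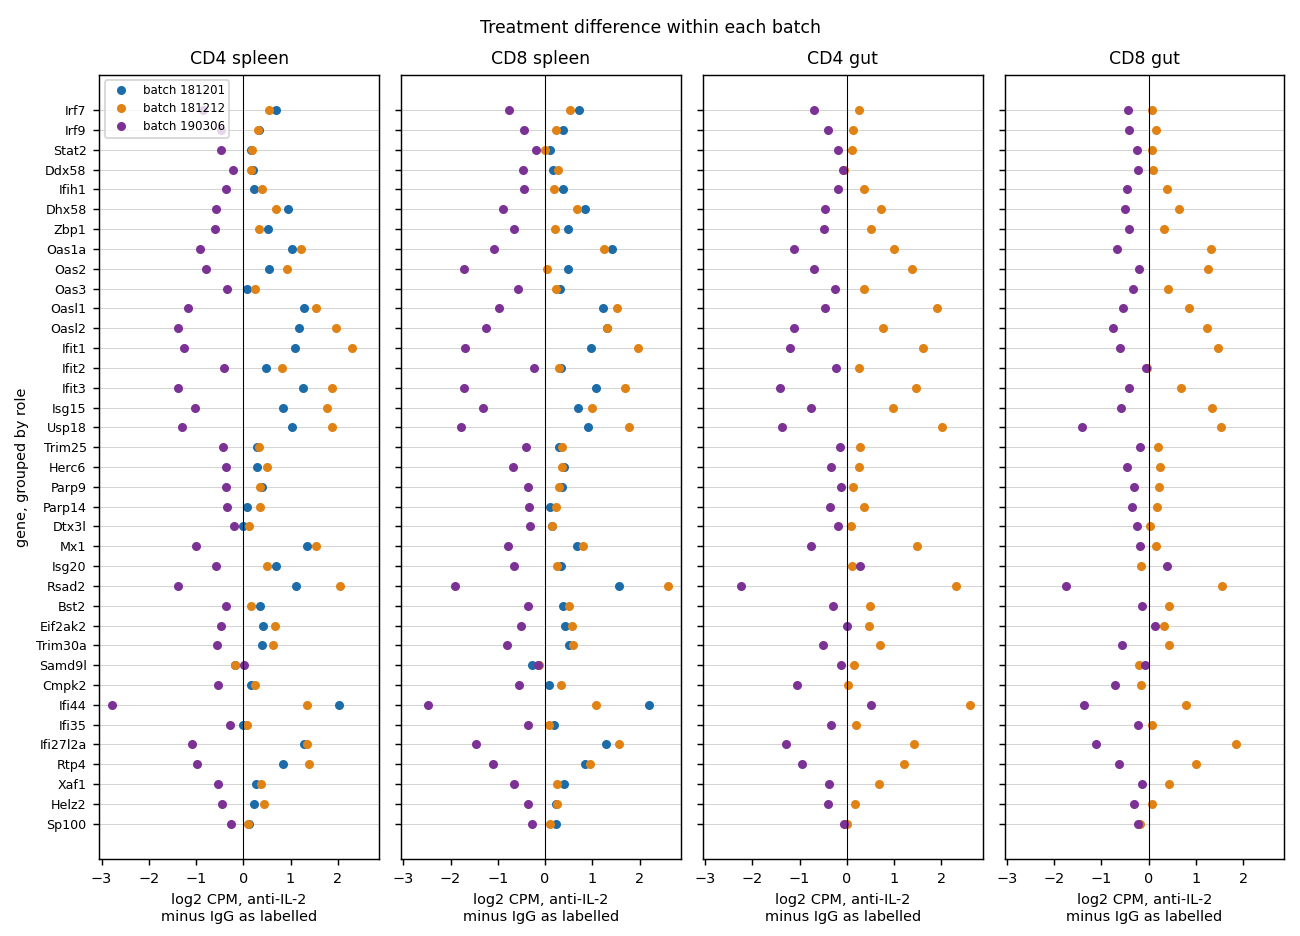
For each gene the log2 CPM difference of anti-IL-2 minus IgG, as labelled, is shown within each batch, 1 panel per population, with genes ordered by role. Points of batches 181201 and 181212 lie mostly right of 0 and those of batch 190306 mostly left, and gut panels lack batch 181201 because it holds no gut IgG library.

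Genes with the response element core in the promoter window had a median log2 fold change of 0.54 (12 members) against 0.34 for the 16 members whose windows lacked it in CD4 spleen cells. The medians were 0.52 and 0.30 in CD8 spleen, 0.65 and 0.26 in CD4 gut and 0.51 and 0.06 in CD8 gut cells. Both sets covered wide ranges, in CD4 spleen cells from 0.17 to 1.74 with the core and from -0.17 to 1.81 without it. These values are a description, and no test of the difference was made.

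The pathway above and around the members was read from lists fixed by name. Of the interferon ligands, 20 genes were in the table and held 18 reads over all 22 libraries, with 0 to 4 reads per library, so none could be tested. Ifnar2, the high-affinity receptor chain, was at 33.6 and 29.8 CPM under IgG and at 71.9 and 76.2 under anti-IL-2 in CD4 spleen cells of batches 181201 and 181212, and at 57.9 and 30.0 in batch 190306. It rose by 1.19 ± 0.10, 0.81 ± 0.10, 0.75 ± 0.13 and 0.90 ± 0.13 in CD4 spleen, CD8 spleen, CD4 gut and CD8 gut cells. Jak1, a kinase bound to the receptor, rose in CD8 spleen cells (0.31 ± 0.05). Ifnar1 and Tyk2 did not pass in any population, with values from -0.18 ± 0.07 to 0.16 ± 0.06 and from -0.07 ± 0.06 to 0.19 ± 0.08. Socs1, an inhibitor of Janus kinases, did not pass either (-0.24 ± 0.13 to 0.05 ± 0.11).

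Other interferon-induced genes moved with the members in part. Of 56 further induced genes tested, 28 rose and 1 fell in CD4 spleen, 22 and 1 in CD8 spleen, 18 and 1 in CD4 gut, and 6 and 5 in CD8 gut cells. In the list of the interferon gamma axis, 12 of 27 rose and 3 fell in CD4 spleen, 7 and 1 in CD8 spleen, 6 and 1 in CD4 gut, and 2 and 1 in CD8 gut cells. Over all genes tested, 9.8%, 6.06%, 6.04% and 5.51% rose and 10.3%, 6.08%, 5.68% and 5.22% fell in the same order. Ifng itself passed in none (-0.68 ± 0.55 to -0.06 ± 0.46). The IFITM family, membrane proteins that block viral entry and are also interferon targets, went the other way: 3 of 5 tested fell in CD4 spleen, 2 in CD8 spleen and 3 in each gut population, and 0 rose, by edgeR. Ifitm3 was at 120 and 148 CPM under IgG and at 32.1 and 18.3 under anti-IL-2 in CD4 spleen cells of batches 181201 and 181212, and at 35.2 and 171 in batch 190306. It fell by 2.44 ± 0.33, 2.75 ± 0.41, 2.63 ± 0.37 and 2.84 ± 0.41 on the log2 scale in the 4 populations.

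Markers of other cell types moved with some of these results, and their part in them was not tested. Of the 16 macrophage and monocyte markers, the summed level ran from 106 to 239 CPM in the CD4 spleen IgG libraries and from 67.9 to 304 in the anti-IL-2 libraries, with Vsig4 at no more than 0.0545 CPM in any library and with Itgam and Cd68 taking much of the sum. Csf1r, which defines macrophages, was at 51.4 CPM in the CD4 spleen anti-IL-2 library of batch 181201 and at 37.5 in the IgG library of batch 190306, but at 2.63 in the anti-IL-2 library of batch 181212 and at 6.02 and 0.772 in the IgG libraries of batches 181201 and 181212. The mean member levels of these libraries were 0.81, 0.91, 0.86, 0.21 and 0.06 in the same order. The CD4 spleen anti-IL-2 library of batch 190306 had a mean member level of 0.19, and its Csf1r value is not given here. Csf1r is 1 of the 16 markers, and the relation of the member levels to it was not tested. In CD8 spleen cells the median difference of the 13 macrophage markers tested was 0.94 in batch 181201, -0.00296 in batch 181212 and -2.37 in batch 190306, where the members had 0.40, 0.35 and -0.65. The plasmacytoid dendritic cell markers were split. Siglech stayed at or under 0.114 CPM in all 22 libraries, Cox6a2 at or under 0.245 and Klk1 at or under 1.12. Pacsin1 (21.7 to 83.2 CPM) and Tcf4 (11.7 to 37.4 CPM) reached 1 CPM in all 22. In gut, 3 of 5 fibroblast markers rose under anti-IL-2 in CD4 and 4 of 5 in CD8 cells of batches 181201 and 181212, with sums over all batches of 0.584 to 8.09 and 0.758 to 16.2 CPM in the anti-IL-2 libraries against 0.645 to 1.12 and 0.47 to 2.22 under IgG. Of 7 epithelial markers, 3 rose and 1 fell in CD4 gut and 4 rose and 0 fell in CD8 gut cells of batches 181201 and 181212. Over all batches and as labelled, their sums were 52.5 to 117 CPM under anti-IL-2 and 36.97 to 59.5 under IgG in CD4 gut libraries. In CD8 gut libraries they were 89.1 to 142 and 63.3 to 74.8, where the groups did not overlap. The 21 stress and immediate early genes, again over all batches and as labelled, summed to 4047 to 7993 CPM under anti-IL-2 and 9681 to 10388 under IgG in CD4 gut libraries. In CD8 gut libraries they summed to 2525 to 6315 and 6979 to 8042, with no overlap in either cell type, batch 190306 included. Of these 21 genes, 2 rose and 1 fell in CD4 gut cells and 1 rose and 1 fell in CD8 gut cells by edgeR in batches 181201 and 181212. Over all genes, 6.04% rose and 5.68% fell in CD4 gut, and 5.51% and 5.22% in CD8 gut cells.

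Between the tissues, most interferon response genes were lower in gut than in spleen in CD4 cells. The tissue difference was not tested between the cell types. All 22 libraries entered this edgeR model, with the 6 combinations of batch and labelled treatment as a block. In CD4 cells 30 of 37 members were lower and 2 higher in gut, where 22.7% of the 12841 genes tested were lower and 26.6% higher (49.3% in either direction), and the median member value was -0.49. In CD8 cells 15 were lower and 5 higher, beside 23% and 24.8% of all genes (47.8% in either direction), with a median of -0.21. Within each of the 5 combinations of batch and treatment that hold both tissues, 30 to 35 members were lower in gut in CD4 cells and 22 to 31 in CD8 cells. Without the block, 12 members were lower and 1 higher in CD4 cells, and 3 were lower and 2 higher in CD8 cells. The share of all genes called in that fit is not given here, so the drop cannot be ascribed to the members alone.

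Rsad2 showed a large difference in CD4 cells, with 8.85 to 37.3 CPM over the 6 spleen libraries and 0.834 to 8.28 over the 5 gut libraries, so that no gut library reached the lowest of spleen. Its gut minus spleen value was -2.49 ± 0.16 in CD4 and -1.33 ± 0.17 in CD8 cells. Ifi44 had the lowest value in both (-3.17 ± 0.41 and -1.74 ± 0.52). Ifit3 (-2.11 ± 0.22), Oasl1 (-1.97 ± 0.22), Usp18 (-1.80 ± 0.13), Ifit1 (-1.68 ± 0.19), Oasl2 (-1.41 ± 0.16) and Mx1 (-1.32 ± 0.24) followed in the same direction in CD4 cells. Isg20 ran against the others in both cell types. It was at 19.9 to 36.3 CPM over the CD4 spleen libraries and at 40.4 to 60.8 over the CD4 gut libraries, and at 8.46 to 13.6 and 43.3 to 64.3 over the CD8 spleen and CD8 gut libraries, with no overlap in either cell type. Its difference was 0.89 ± 0.13 in CD4 and 2.22 ± 0.14 in CD8 cells. Ddx58 was the other member higher in gut CD4 cells (0.20 ± 0.06), and Isg15 (0.70 ± 0.15), Stat2 (0.43 ± 0.05), Zbp1 (0.25 ± 0.06) and Ddx58 (0.20 ± 0.06) were higher in gut CD8 cells. Of the 13 macrophage markers tested, 9 were lower and 1 was higher in gut CD4 cells. There 17 of 21 stress and immediate early genes and 6 of 7 epithelial markers were higher. Of all genes, 22.7% were lower and 26.6% higher in these cells. The part of these lists in the result was not tested.

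**Figure D5:**
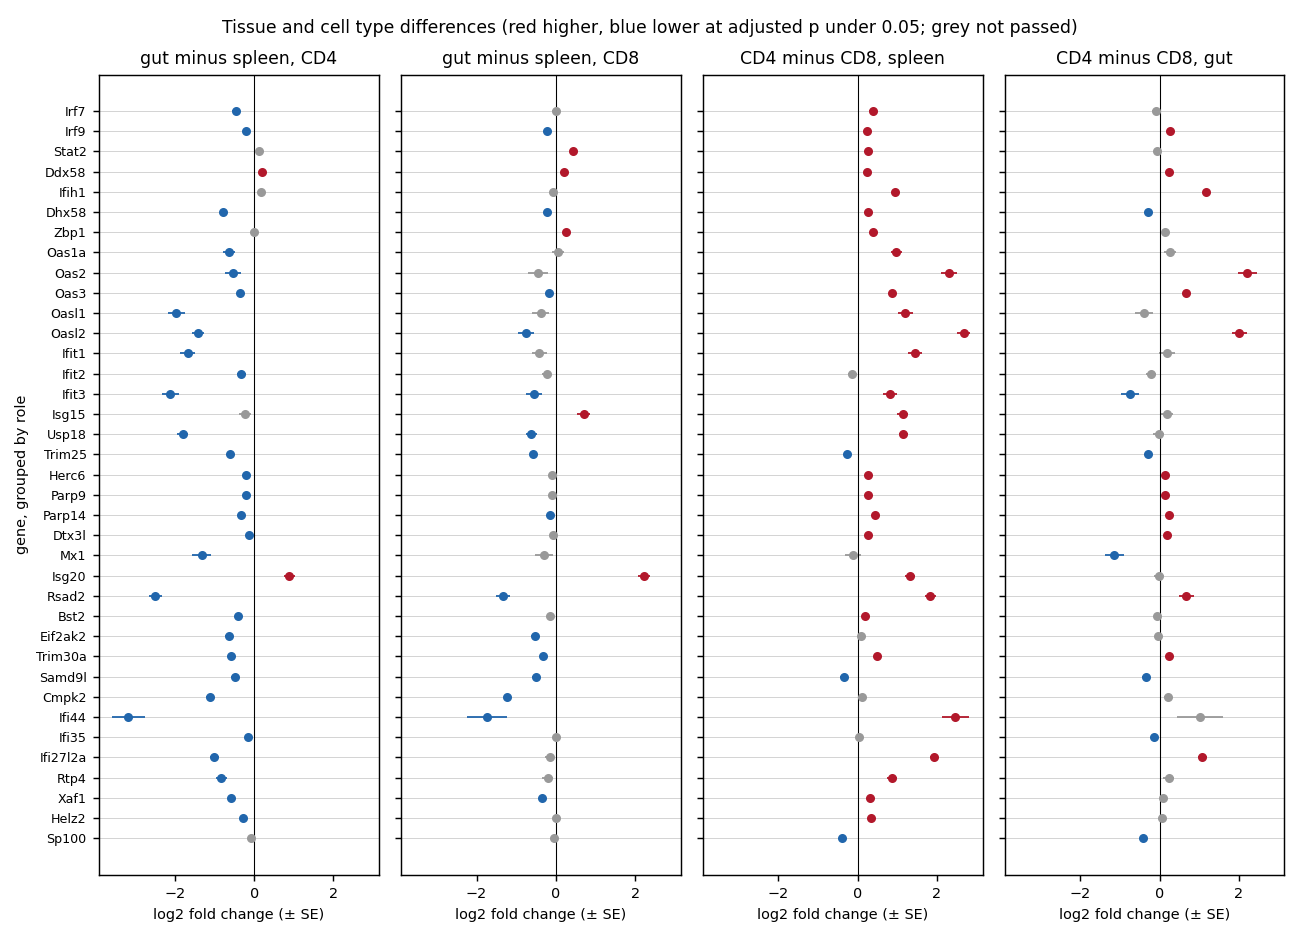
Log2 fold changes with their standard errors are shown for the 37 genes in gut minus spleen (first pair of panels) and CD4 minus CD8 cells (second pair), red where higher and blue where lower at an adjusted p under 0.05, grey where not passed. Blue fills the CD4 gut panel apart from Isg20, Ddx58 and a few grey genes, and red fills the CD4 minus CD8 panel of spleen apart from Trim25, Samd9l, Sp100 and the grey genes.

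Between the cell types, most members were higher in CD4 than in CD8 cells in spleen. There 29 of 37 were higher in CD4 cells and 3 lower, where 28.9% of all genes were higher and 29.2% lower (58.1% in either direction), with a median member value of 0.38. In gut 13 were higher and 7 lower, beside 22.9% and 23.1% (46% in either direction), with a median of 0.15. The count of members higher in CD4 spleen cells was 29 to 34 in each of the 6 combinations of batch and treatment. In gut it was 22 to 29 in the 3 combinations of batches 181201 and 181212 and 13 and 14 in the 2 of batch 190306, where the medians were -0.17 and -0.06. Without the block, 18 members were higher and 1 lower in spleen, and 4 were higher and 2 lower in gut, and the share of all genes called is not given here.

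The OAS family led this difference, with all 5 members higher in CD4 spleen cells and a family median of 1.19. Oasl2 ran from 7.72 to 34.7 CPM in CD4 spleen libraries and from 1.46 to 5.49 in CD8 spleen libraries, with no overlap, a difference of 2.67 ± 0.16. In gut it ran from 4.25 to 9.84 in CD4 and from 0.926 to 3.71 in CD8 libraries, again with no overlap (2.01 ± 0.19). Oas2 was higher in CD4 cells by 2.30 ± 0.21 in spleen and 2.21 ± 0.24 in gut, Ifi44 by 2.46 ± 0.35 in spleen, and Ifi27l2a by 1.93 ± 0.11 and 1.08 ± 0.12. Trim25, Samd9l and Sp100 were lower in CD4 cells in both tissues, with values of -0.26 ± 0.04, -0.35 ± 0.10 and -0.40 ± 0.05 in spleen. In gut, Mx1 (-1.14 ± 0.24), Ifit3 (-0.75 ± 0.23), Dhx58 (-0.30 ± 0.08) and Ifi35 (-0.13 ± 0.05) were also lower in CD4 cells, with Mx1 at 6.01 to 25.6 CPM in the CD4 and 26.8 to 31.1 in the CD8 libraries. Of the 13 macrophage markers tested, 5 were higher and 2 lower in CD4 spleen cells, beside 28.9% and 29.2% of all genes. Their part in the result was not tested.

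The members varied together across libraries to different degrees. Pearson's r between a member and the mean of the other members over the 22 libraries, which share batches, depth and populations, was 0.97 for Rtp4, 0.96 for Ifit1 and 0.94 for Rsad2, and it was -0.20 for Sp100, -0.04 for Isg20 and 0.03 for Samd9l. Among 9560 genes outside the list whose mean log2 CPM reached 2, those most like the mean member level included Patj (0.97), Asap1 (0.95), Cxcr5 (0.94) and Tox2 (0.94), and 143 had an r above 0.8. Cxcr5, the homing receptor of follicular helper cells, rose in batches 181201 and 181212 by 1.94 ± 0.20, 3.74 ± 0.30, 2.86 ± 0.34 and 4.22 ± 0.58 in CD4 spleen, CD8 spleen, CD4 gut and CD8 gut cells.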

How the data were processed

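RNA of sorted donor T cells was measured by RNA-seq in 22 libraries made with a stranded mRNA kit, per the labels' protocols. The authors deposited raw read counts per gene symbol, and the submitters' processing notes name TopHat2, HTSeq 0.9.1 and build mm10. The annotation, filters and strand setting are not given in the sources used here. All 37 members matched GENCODE M21, which gave coordinates and exon lengths.

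Counts were analysed with edgeR 4.0.16 in R 4.3.3: filterByExpr on the group, TMM scaling, robust quasi-likelihood fits, and a Benjamini-Hochberg adjustment across every gene in the fit, with a threshold of 0.05. Treatment was fitted with 8 groups and batch as a block taken from the labels, in all 22 libraries (12841 genes, 12 residual degrees of freedom) and in the 14 libraries of batches 181201 and 181212 (13073 genes, 5). Tissue and cell type were fitted as 4 populations with a block of 6 combinations of batch and labelled treatment (13 residual degrees of freedom). Standard errors after ± were derived from the test, as the absolute log2 fold change over the square root of the quasi-likelihood F statistic. CPM is the count scaled to the total of the library, and differences within a batch used log2 CPM with a prior count of 2. The labels do not say that libraries came from separate animals, so p values measure the spread between these libraries, and an interval from reads covers counting error only. Fits were tested on simulated data. Alternatives were DESeq2 1.42.0, limma voom 3.58.1, no filter, no block, other models, and leaving out libraries.

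The members, gene lists, comparisons and motifs were chosen with earlier results of these data known. Every member could be named. Values of every library went to the most abundant member of each role per kilobase, to the largest and smallest changes of a contrast, and to members called against the majority. From the other lists, the rule allowed the 2 genes with the smallest p per direction, and Ifnar1, Ifnar2, Jak1, Tyk2, Socs1, Ifng, Il2ra, Socs2 and Cish. It also allowed the 5 genes outside the list most like the mean of the members. Some results that these rules allowed are not reported here.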

Additional observations from a re-analysis of the deposited data

Results flagged for a closer look

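The treatment effect on Mx1 differed between the cell types in batches 181201 and 181212, by a test of the difference itself. CD4 minus CD8 was 0.73 ± 0.12 in log2 in spleen (edgeR adjusted p = 0.0153) and 1.28 ± 0.17 in gut (edgeR adjusted p = 0.00939). DESeq2 gave adjusted p = 0.0386 and 0.00347 and limma voom 0.0246 and 0.0242. Mx1 was not called without the batch block (edgeR adjusted p = 0.0716 and 0.0592).

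The treatment effect on Irf7 in CD8 cells was smaller in gut than in spleen by a test of the difference, at -0.53 ± 0.12 (edgeR adjusted p = 0.0348). DESeq2 gave 0.0883 for Irf7 and limma voom 0.0415, both adjusted, and the value without the batch block was -0.43 (edgeR adjusted p = 0.431). Irf7 was the 1 member of 37 called, which is near the share of all 13073 genes called (2.39%). The call was lost in most fits that left out a library, and the gut side rests on 1 IgG library.

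The labelled treatment difference of batch 190306 differed from that of the other batches for 34 members in CD4 spleen, 34 in CD8 spleen and 26 in CD4 gut cells. In CD8 gut cells it differed for 19, of which 18 were lower and 1 higher. Of all 12841 genes, 24.3%, 16.1%, 15% and 13% were called in either direction in the same order. Each group of batch 190306 held 1 library in these tests.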

How the results depend on the processing

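No member called in the main fit or in an alternative changed direction between the 2. Members called in neither were not compared by direction. Some medians changed sign across the alternatives. With all batches they ran from -0.22 to 0.30 in CD8 gut and from -0.08 to 0.27 in CD8 spleen cells. Under DESeq2, limma voom or no filter on low counts, 20 to 29 members rose in spleen and 10 to 20 in gut in batches 181201 and 181212, 0 fell, and all batches together gave 0 calls in every population under each alternative. Leaving out 1 library gave 13 to 16 members in CD8 spleen cells (27 with all libraries) and 11 to 15 in CD4 gut cells (20 with all), where fewer samples were fitted. Without the replicate block, that is without batch, 26, 20, 15 and 10 members rose in CD4 spleen, CD8 spleen, CD4 gut and CD8 gut cells. Without the block of batch and treatment, the members called between tissues were 13 in CD4 and 5 in CD8 cells, and between cell types 19 in spleen and 6 in gut. With 8 groups and batch in place of that block they were 16, 6, 19 and 7. The cause was not tested, and the shares of all genes called under these alternatives are not given here. Member differences of treatment effects moved from 1 to 0 without the block in the 3 comparisons with a call, and that of gut minus spleen in CD8 cells moved to 3 without the filter. Leaving out 1 library gave 0 to 2 for gut minus spleen in CD4 cells and 0 to 1 in CD8 cells, and 0 to 1 for CD4 minus CD8 in spleen and in gut. A rule of 1 CPM in every library would keep 32 of the 37 members. The gut treatment contrasts of these batches are limited by 1 IgG library, and Ifi44 by few reads.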
